A study of Mus musculus with 16 samples.

Results

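The caspases and the Bcl2 family were followed in 3T3-L1 cells, a clonal line of mouse preadipocytes able to differentiate into fat cells in culture, after dexamethasone (dex), a synthetic glucocorticoid, or its DMSO vehicle. Members were all probes whose annotation named a single gene called Casp or Bcl2 with a number, Bcl2 itself, or Bax, Bak1, Bok, Bid, Bad, Bik, Bmf, Hrk, Bbc3, Pmaip1, Mcl1, Apaf1, Cycs, Diablo, Xiap or Cflar. The rule found 58 of 38467 probes, which covered 31 of the 19640 genes that had a probe of their own. Of these genes, 15 had 1 probe and 16 had several. Bax and Cycs had no probe naming them alone and were not analysed here. The 4 groups were DMSO for 2 h, dex for 2 h, DMSO for 36 h and dex for 36 h, each with 4 arrays of biological replicates, 16 altogether. All groups were the same line, and dex was compared with the vehicle of the same time. The sources used here do not state the dose of dex, the medium or the stage of differentiation, and a clonal line in culture stands for no tissue. Each array set the total RNA of 1 sample (Cy5) against a pool of the samples (Cy3), and a value is the logarithm of that ratio. Its base is not stated in the sources used here, and 2 was assumed. Such ratios give differences between arrays and no level, so a gene's level cannot be set against that of another gene.

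Apoptosis through the mitochondrion is set by the Bcl2 family. The BH3-only proteins sense stress and either bind the anti-apoptotic members (Bcl2, Bcl-xL, Mcl1) or activate the effectors, which open the outer mitochondrial membrane. Cytochrome c then leaves the mitochondrion and builds the apoptosome with Apaf1, which activates the initiator caspase 9 and, through it, the executioner caspases, while Xiap and cFLIP hold caspases back. Glucocorticoids are known to kill lymphoid cells through this pathway, with Bim as a main mediator, and to protect several epithelial and fibroblast-like cells.

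Array quality touched some of the results. The array medians lay between -0.0106 and 0.00832, and no member value was missing. The 2 h arrays were noisier, with a residual SD over probes of 0.168 to 0.437 against 0.108 to 0.205 at 36 h. DMSO 2 h replicate 4 stood apart, with a mean correlation across probes of -0.104 with its group. The labels name no batch. The replicates are called biological by the labels, which do not say whether they came from separate cultures, so the p-values measure the spread between these samples.

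The RNA of Bcl2l1 (Bcl-xL) rose and that of Bcl2l11 (Bim) fell at both times, and these were the members that passed at 2 h. The arrays measured no protein. At 2 h, 2 of the 31 member genes passed (6.45%), against 3.18% of all genes. A gene passed where at least 1 of its probes had a limma p under 0.05 after Benjamini-Hochberg adjustment over all probes. At 36 h, 6 of 31 passed (19.4%), against 11.7% of all genes. Bcl2l1, Mcl1, Bok, Bcl2l13 and Casp9 were higher with dex and Bcl2l11 was lower, which is 5 up and 1 down. With quantile normalization, or with each array brought to one median and spread, the split was 6 up and 4 down, among 22.1% and 21.3% of all genes called. By the rule that the study's design text names, log-odds above 50:50 for 1 probe, 2 of 31 passed at 2 h (2.53% of all genes) and 3 at 36 h (5.23%), namely Bcl2l1, Mcl1 and Bcl2l11. By probe, 3 passed upward at 2 h (1.70% of all probes naming 1 gene) and 2 downward (0.964%), in all 5 of 58 against 2.67%. At 36 h, 7 passed upward (5.63%) and 2 downward (3.90%), in all 9 of 58 against 9.53%. The 4 dex arrays did not overlap the 4 DMSO arrays for 5 of 58 probes at 2 h, against 6.64% of all probes naming 1 gene. At 36 h they did not overlap for 21 of 58, against 27.9%.

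**Figure D1:**
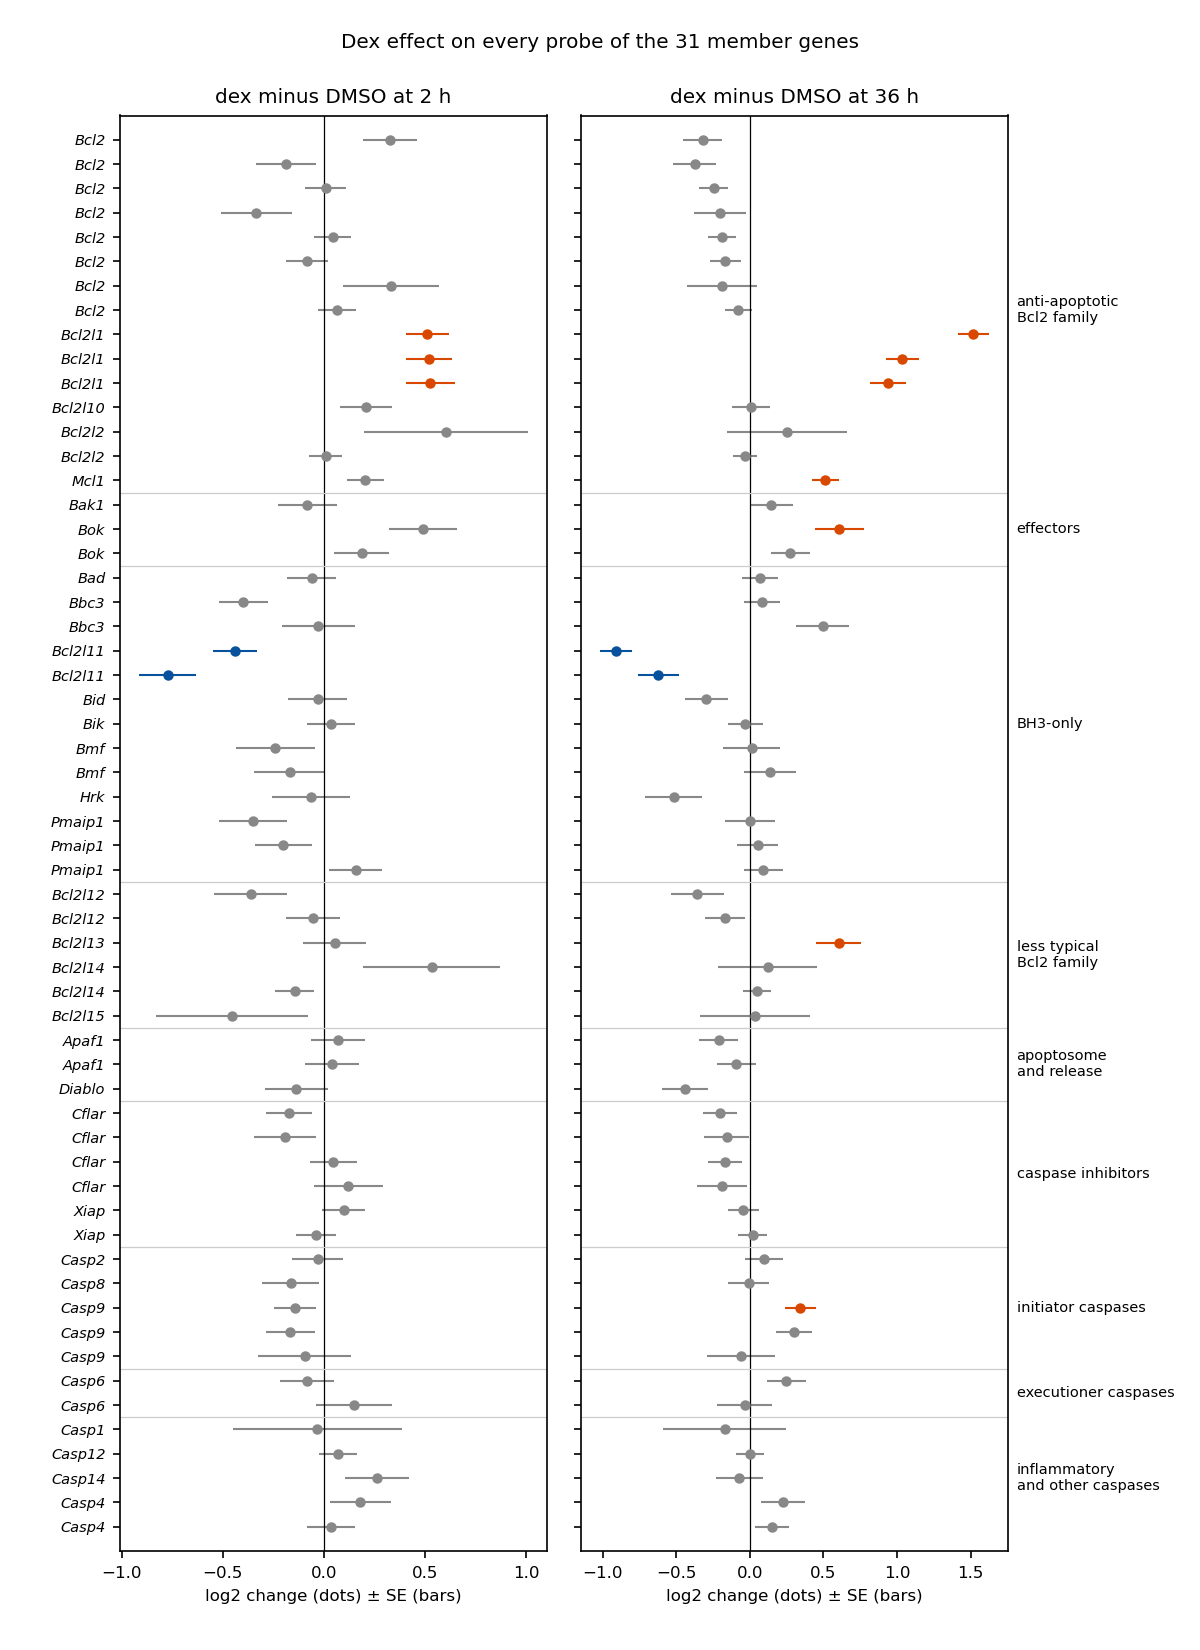
Log2 change with dex (horizontal axis; dots, with bars of ± 1 SE of the fitted contrast) for all 58 probes of the 31 genes, ordered by role, at 2 h on the left and 36 h on the right, with coloured dots for probes past the adjusted threshold (orange higher, blue lower). All 3 Bcl2l1 probes lie right of 0 and both Bcl2l11 probes left of it at both times, while all 8 Bcl2 probes lie left of 0 at 36 h without passing.

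Bcl2l1 encodes Bcl-xL, a protein of the mitochondrial membrane that binds BH3-only proteins and effectors and so keeps cells alive. It had the largest change of the family at 36 h on all 3 of its probes. On the probe with the smallest p over both dex contrasts, the 4 DMSO arrays at 2 h read -0.04, -0.36, -0.30 and -0.13 and the dex arrays 0.22, 0.51, 0.26 and 0.23 (log2 ratio to the pool). The DMSO arrays at 36 h read -0.84, -0.76, -0.62 and -0.60 and the dex arrays 0.70, 1.05, 0.70 and 0.80. All dex arrays lay above 0 and all DMSO arrays below it, with no overlap at either time. The difference was 0.51 ± 0.11 at 2 h (SE, n = 4 per group, 1.42-fold, limma adjusted p = 0.0137) and 1.52 ± 0.11 at 36 h (2.86-fold, limma adjusted p = 1.47e-07). The other probes gave 0.52 and 0.52 at 2 h (limma adjusted p = 0.0207 and 0.0298). At 36 h they gave 1.04 and 0.94 (limma adjusted p = 2.25e-05 and 1.14e-04). The 3 probes therefore agreed in size at 2 h, and at 36 h the first read higher than the other two. When the 2 h arrays were fitted by themselves, the first probe at 2 h had a limma adjusted p of 0.117 and Bcl2l1 no longer passed. With each array brought to one spread the first probe missed the threshold (0.0818) and Bcl2l1 passed on another.

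The increase of the Bcl2l1 response between the times was tested as the difference between the dex effects. It was 1.01 ± 0.15 on the first probe (limma adjusted p = 0.00136), and Bcl2l1 was the only 1 of 31 member genes to pass, against 3.48% of all genes in any direction and 2.12% upward. Both groups moved: the dex mean went from 0.30 ± 0.14 (SD, n = 4) at 2 h to 0.81 ± 0.16 at 36 h, and the DMSO mean from -0.21 ± 0.15 to -0.71 ± 0.11. On the other probes the increase was 0.52 and 0.42, and neither passed (limma adjusted p = 0.13 and 0.285). Bcl2l1 was also the only 1 of 31 member genes to pass between DMSO at 36 h and DMSO at 2 h, against 1.26% of all genes in any direction and 0.993% downward. By unadjusted p under 0.05 it was 11 of 58 member probes, against 12.1% of all. It fell by 0.50 on the log2 scale (limma adjusted p = 0.0384). That call was lost with the DMSO arrays fitted by themselves (adjusted p = 0.115), without any 1 of the DMSO 36 h arrays (0.0735 to 0.146) or without DMSO 2 h replicate 1 (0.0839). It was also lost without replicate 1 or 4 of dex 36 h, or replicate 1, 3 or 4 of dex 2 h (0.0508 to 0.0637). The other 2 probes read -0.36 and -0.27 without passing (limma adjusted p = 0.19 and 0.403). Bcl2 rose in DMSO by 0.58 on its first probe without passing (limma adjusted p = 0.0624), and its others read from -0.22 to 0.18. It passed as higher with array weights, quantile normalization or scaling to one spread. Without DMSO 2 h replicate 1, Bcl2 was the only member that passed. In these fits 1.21% to 3.82% of all genes passed. The Bcl2 change of the dex effect was -0.65 on that probe (limma adjusted p = 0.102).

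RefSeq's promoter windows for Bcl2l1 and Bcl2l11 show the sequence in front of the gene that rose most and of the gene that fell most, each over 250 bases before to 50 after an annotated start (GRCm38.p6, printed 5′ to 3′ on the gene's strand). Capitals mark a match to one of the motifs searched. These were the forkhead site GTAAACA, bound by the FoxO factors that are known to activate Bim, the 6-base element AGAACA of the glucocorticoid receptor, and the receptor's full site, GNACA followed after 3 free bases by its reverse complement TGTNC, each on both strands. The Bcl2l1 window is chr2:152831679-152831978 on the minus strand and the Bcl2l11 window chr2:128125788-128126087 on the plus strand.
Bcl2l1: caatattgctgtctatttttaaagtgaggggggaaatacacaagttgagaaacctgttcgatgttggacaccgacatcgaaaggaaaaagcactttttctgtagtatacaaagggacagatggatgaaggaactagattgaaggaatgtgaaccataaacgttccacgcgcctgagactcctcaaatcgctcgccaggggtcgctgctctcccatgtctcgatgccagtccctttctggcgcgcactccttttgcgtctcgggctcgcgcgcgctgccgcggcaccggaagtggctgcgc
Bcl2l11: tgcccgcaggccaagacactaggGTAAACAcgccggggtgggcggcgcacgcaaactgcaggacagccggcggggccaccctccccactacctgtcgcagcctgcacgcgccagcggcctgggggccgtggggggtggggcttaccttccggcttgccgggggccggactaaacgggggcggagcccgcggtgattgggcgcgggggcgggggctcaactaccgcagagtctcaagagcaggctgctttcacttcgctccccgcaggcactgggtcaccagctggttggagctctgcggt
The Bcl2l1 window is the farthest upstream of 3 for that gene, and none of the 3 held a match. The Bcl2l11 window is the first of 2, and its forkhead match begins 227 bases before the start. A match is a description of letters, not a bound site, and no match says only that these letters are not in the window.

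Bcl2l11 encodes Bim, a BH3-only protein that binds every anti-apoptotic member and is needed for the death of many cells deprived of growth factors. It was the only member that passed downward, at 2 h against 1.21% of all genes that passed downward and at 36 h against 4.96%. On the first probe the DMSO arrays at 36 h read 0.28, 0.35, 0.22 and 0.21 and the dex arrays -0.57, -0.83, -0.68 and -0.49. These groups were far apart relative to their spread (means of 0.27 ± 0.06 and -0.64 ± 0.15, SD, n = 4). The difference was -0.91 ± 0.11 (SE, a 1.88-fold lower ratio, limma adjusted p = 5.35e-05). At 2 h the DMSO arrays read 0.13, 0.22, 0.17 and -0.29 and the dex arrays -0.29, -0.44, -0.36 and -0.43. DMSO replicate 4, the array that stood apart, reached down to the dex arrays, and the other three lay above 0. The difference at 2 h was -0.44 ± 0.11 (limma adjusted p = 0.0446), and without DMSO 2 h replicate 4 it was -0.56 (adjusted p = 0.00136).

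The second Bcl2l11 probe gave another course. At 2 h the DMSO arrays read 0.61, 0.03, 0.07 and 0.08 and the dex arrays -0.64, -0.47, -0.62 and -0.57. At 36 h the DMSO arrays read 0.09, 0.23, 0.03 and 0.02 and the dex arrays -0.55, -0.44, -0.89 and -0.24. The groups did not overlap at either time. The differences were -0.77 ± 0.14 at 2 h (limma adjusted p = 0.0047) and -0.62 ± 0.14 at 36 h (limma adjusted p = 0.0106). The first probe thus read lower at 36 h than at 2 h and the second did not, and the change of the dex effect passed on neither (-0.47, limma adjusted p = 0.154, and 0.15, limma adjusted p = 0.787). On the first probe the 2 h call was lost when any 1 of the other 2 h arrays was left out, with the adjusted p between 0.0628 and 0.129. It was also lost without replicate 1 or 3 of dex 36 h or any 1 of the DMSO 36 h arrays (0.0570 to 0.0689), with the 2 h arrays fitted by themselves (0.318) and with quantile normalization (0.162). Bcl2l11 as a gene passed at 2 h in each of the 16 fits that left out 1 array.

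**Figure D2:**
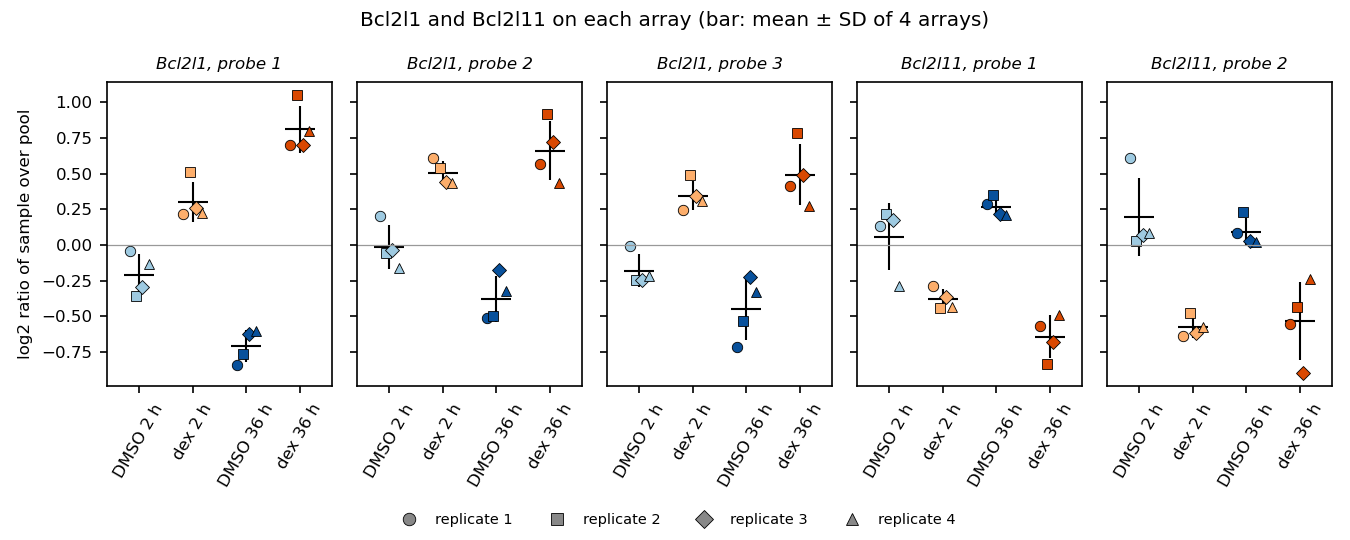
Log2 ratio of sample over pool (vertical axis) on each of the 16 arrays for the 3 Bcl2l1 probes and both Bcl2l11 probes, by group, with symbols for the replicate number and black bars for the group mean ± SD of 4 arrays. Dex arrays lie above the DMSO arrays of the same time on every Bcl2l1 probe, and the DMSO 2 h array of Bcl2l11 probe 1 that reads -0.29 is the one that reaches the dex arrays.

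The other anti-apoptotic members differed among themselves. Mcl1, whose short-lived protein holds back the effector Bak and the BH3-only proteins, rose in RNA at 36 h. Its only probe read -0.46, -0.19, -0.24 and -0.25 in the DMSO arrays at 36 h and 0.19, 0.32, 0.02 and 0.39 in the dex arrays. The groups did not overlap, and the difference was 0.51 ± 0.09 (SE, n = 4 per group, 1.43-fold, limma adjusted p = 0.00205). The adjusted p of Mcl1 at 36 h stayed between 3.24e-05 and 0.0112 over all alternatives run. At 2 h the DMSO arrays read 0.03, -0.17, -0.16 and -0.07 and the dex arrays 0.03, 0.14, 0.16 and 0.13. That difference of 0.21 ± 0.09 did not pass (limma adjusted p = 0.432), nor did the change between the times (0.31, limma adjusted p = 0.301).

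Bcl2, the founding member and a relative of Bcl-xL in structure and action, had 8 probes, more than any other member. At 36 h all 8 read lower with dex, from -0.37 to -0.08, and none passed. On its first probe the DMSO arrays at 36 h read 0.10, 0.17, 0.17 and 0.18 and the dex arrays -0.24, -0.17, -0.29 and 0.02. These did not overlap, as on 5 of the 8 Bcl2 probes at 36 h, and the difference was -0.32 ± 0.13 (limma adjusted p = 0.167). Bcl2 passed at 36 h as lower with the array weights, with both other scalings, with the 36 h arrays fitted by themselves and without replicate 1 or 2 of DMSO 2 h. At 2 h the 8 probes read between -0.33 and 0.33, and the first probe rested on a wide DMSO group (-0.05, -0.88, -0.38 and -0.38) against dex arrays of -0.08, 0.03, -0.11 and -0.21. Bcl-w (Bcl2l2) and Bcl2l10 passed at neither time. The Bcl2l2 probes read 0.60 and 0.01 at 2 h (limma adjusted p = 0.643 and 0.984). That 0.60 rested on dex 2 h replicate 2, which read 2.56, while the other dex arrays read 0.26, 0.23 and 0.07. With 1 array left out it ran from 0.0079 to 0.84. For Bcl2l10 the 95% interval of the difference ran from -0.06 to 0.48 at 2 h and from -0.26 to 0.28 at 36 h. The Bcl2l2 probes differed in precision, with intervals at 36 h of -0.61 to 1.12 and of -0.21 to 0.14. The fit takes 1 variance per probe over the 4 groups. On the wider probe the SD was 1.19 in dex 2 h, against 0.17 in DMSO and 0.17 with dex at 36 h.

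Among the effectors, Bok rose and Bak1 did not pass. Bok is a less studied relative of Bax and Bak that can open the mitochondrial membrane without them. On its first probe the DMSO arrays at 36 h read -0.21, -0.24, -0.04 and -0.07 and the dex arrays 0.58, 0.17, 1.01 and 0.13. The groups did not overlap, but dex replicates 1 and 3 were far above replicates 2 and 4. The difference was 0.61 ± 0.17 (limma adjusted p = 0.0343). Without dex 36 h replicate 1 it was 0.57 (adjusted p = 0.107) and without replicate 3 it was 0.43 (0.101), and without any 1 of the DMSO 36 h arrays it did not pass either (0.0587 to 0.105). At 2 h the DMSO arrays of the same probe read 0.25, -0.09, -0.15 and -0.16 and the dex arrays 0.62, 0.57, 0.20 and 0.43. That difference was 0.49 ± 0.17 and did not pass (limma adjusted p = 0.23). The second Bok probe gave 0.19 at 2 h and 0.28 at 36 h (limma adjusted p = 0.673 and 0.257). Bak1 read -0.08 at 2 h and 0.15 at 36 h, with 95% intervals of -0.39 to 0.23 and -0.16 to 0.46. The Bok promoter window is shown because Bok was the only member that passed in either dex comparison and whose window held the 6-base receptor element, here as its reverse complement TGTTCT, which begins 127 bases before the start. It is chr1:93685325-93685624 on the plus strand.
Bok: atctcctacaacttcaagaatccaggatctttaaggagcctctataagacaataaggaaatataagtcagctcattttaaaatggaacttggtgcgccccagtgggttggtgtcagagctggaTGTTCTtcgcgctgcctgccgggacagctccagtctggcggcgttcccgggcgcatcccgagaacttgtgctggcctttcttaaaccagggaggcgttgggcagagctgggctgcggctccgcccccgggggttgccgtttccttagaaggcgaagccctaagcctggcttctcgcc

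Over all members, 28 of the 31 genes had 40 windows in the RefSeq table. The full receptor site was in 0 of the 40, against 0.475% of all 32851 windows. The 6-base element was in 5 (of Bcl2l14, Bok, Casp1 and Xiap), against 19.0% of all windows. The forkhead site was in 4 (of Bbc3, Bcl2l11 and Casp4, whose 2 matching windows overlap), against 3.65%. The 6-base element can share the letters GAACA with a full site, and matches to different motifs can overlap.

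Bcl2l13 and Casp9 also passed at 36 h, close to the threshold. Bcl2l13 (Bcl-rambo) is a mitochondrial outer membrane protein with roles described both in cell death and in the removal of mitochondria, and was set on neither side. Its only probe read -0.45, -0.46, -0.44 and -0.41 in the DMSO arrays at 36 h, a narrow group, and 0.41, -0.05, 0.39 and -0.10 in the dex arrays. All dex arrays were higher, with replicates 1 and 3 again above 2 and 4. The difference was 0.60 ± 0.16 (limma adjusted p = 0.0246). It did not pass without dex 36 h replicate 1 (0.52, adjusted p = 0.0968), without replicate 3 (0.53, 0.0923), or without any 1 of the DMSO 36 h arrays (0.0553 to 0.0692). At 2 h the DMSO arrays read 0.28, 0.21, -0.16 and -0.35 and the dex arrays 0.37, -0.05, -0.02 and -0.11. These overlapped, with a difference of 0.05 ± 0.16 (limma adjusted p = 0.942).

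Casp9, the initiator that the apoptosome activates, read -0.17, -0.24, -0.09 and -0.05 in the DMSO arrays at 36 h and 0.30, -0.06, 0.40 and 0.19 in the dex arrays. Dex replicate 2 lay within the DMSO range. The difference was 0.34 ± 0.10 (limma adjusted p = 0.0498), just under the threshold. The Casp9 call was lost without replicate 1 (adjusted p = 0.158), 3 (0.175) or 4 (0.0787) of dex 36 h, without any 1 of the DMSO 36 h arrays (0.0734 to 0.157), and without any 1 of replicates 1, 3 and 4 of dex 2 h or replicate 3 of DMSO 2 h (0.0502 to 0.0655). At 2 h its DMSO arrays read 0.04, 0.30, 0.14 and 0.20 and its dex arrays 0.18, -0.11, -0.07 and 0.10, a difference of -0.14 (limma adjusted p = 0.67). The other Casp9 probes read 0.30 and -0.06 at 36 h (limma adjusted p = 0.153 and 0.969). As a count, 3 member genes passed at 36 h without replicate 1 or 3 of dex 36 h or any 1 of the DMSO 36 h arrays, namely Bcl2l1, Mcl1 and Bcl2l11, where 6.56% to 8.06% of all genes passed. Without replicate 1 or 4 of DMSO 2 h or replicate 2 of dex 36 h, 8 passed, and 14.4% to 15.7% of all genes.

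**Figure D3:**
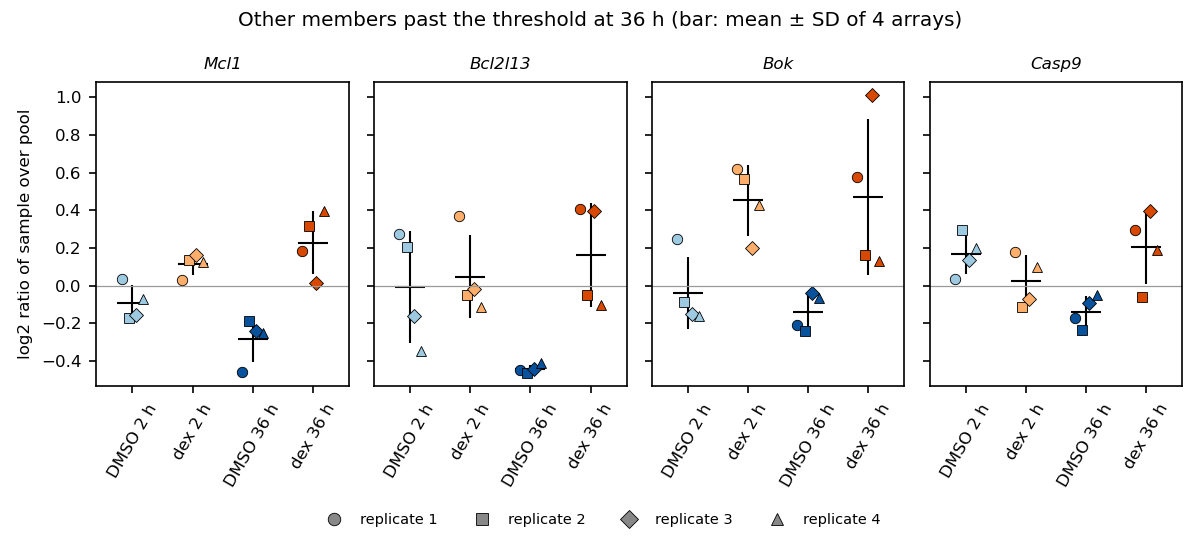
Log2 ratio of sample over pool (vertical axis) on each of the 16 arrays for Mcl1, Bcl2l13, Bok and Casp9 (the quoted probe of each), by group, with symbols for the replicate number and black bars for the group mean ± SD of 4 arrays. Replicates 1 and 3 of dex 36 h (circle and diamond) lie above replicates 2 and 4 for Bok and Bcl2l13, and for Mcl1 they do not.

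Among the 8 BH3-only genes only Bcl2l11 passed at either time in the fit as designed, and Bbc3, Hrk and Bid passed under alternatives. Bbc3 (Puma), a p53 target, had probes that read -0.40 and -0.03 at 2 h (limma adjusted p = 0.147 and 0.976). At 36 h the same probes read 0.08 and 0.49 (limma adjusted p = 0.832 and 0.108). Bbc3 passed as higher at 36 h with array weights, with both other scalings, with the 36 h arrays fitted by themselves and without DMSO 2 h replicate 4 or dex 36 h replicate 2, and as lower at 2 h with array weights. Hrk, which binds Bcl2 and Bcl-xL, read 0.29, 0.43, 0.26 and 0.25 in the DMSO arrays at 36 h and -0.39, 0.16, -0.66 and 0.05 in the dex arrays. All its dex arrays were lower, replicates 1 and 3 most, and the difference of -0.52 did not pass (limma adjusted p = 0.12). Hrk passed as lower with array weights, with both other scalings and without DMSO 2 h replicate 4. Bid, which carries the signal of caspase 8 to the mitochondrion, read -0.03 at 2 h and -0.29 at 36 h (limma adjusted p = 0.967 and 0.267), and passed as lower at 36 h with array weights and with the 36 h arrays fitted by themselves. For Bad, which binds Bcl2 and Bcl-xL when it is not phosphorylated, the intervals were -0.32 to 0.20 at 2 h and -0.19 to 0.33 at 36 h. Bik gave -0.21 to 0.29 and -0.28 to 0.22. The Bmf probes read -0.24 and -0.17 at 2 h and 0.01 and 0.14 at 36 h. Pmaip1 (Noxa), which neutralises Mcl1, read -0.35, -0.20 and 0.16 on its 3 probes at 2 h, a disagreement in sign, and 0.00 to 0.09 at 36 h. Bad, Bik, Bmf and Pmaip1 did not pass at either time.

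The remaining Bcl2 relatives, Bcl2l12, Bcl2l14 and Bcl2l15, passed at neither time in the fit as designed. Bcl2l12 passed as lower at 36 h with array weights, where 46.3% of all genes passed. Bcl2l12 read -0.36 at both times on its first probe (limma adjusted p = 0.506 at 2 h and 0.278 at 36 h) and -0.05 and -0.17 on its second. Bcl2l14 read 0.53 and -0.14 at 2 h and 0.12 and 0.05 at 36 h. The 0.53 (limma adjusted p = 0.619) rested on dex 2 h replicate 1, which read 2.10, while the other dex arrays read 0.00, 0.08 and -0.06. With 1 array left out that difference ran from 0.0098 to 0.73. The single Bcl2l15 probe was among the least precise, with an interval at 36 h of -0.76 to 0.84. That width rested on dex 2 h replicate 2, which read -2.14, as the fit takes 1 variance per probe over the 4 groups. At 36 h the SD of Bcl2l15 was 0.05 in DMSO and 0.05 with dex.

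Downstream of the mitochondrion few changes were measurable. Diablo (Smac), which leaves the mitochondrion and relieves caspases of Xiap, read 0.18, 0.23, 0.14 and 0.24 in the DMSO arrays at 36 h and -0.49, 0.10, -0.59 and 0.00 in the dex arrays. Its arrays did not overlap, replicates 1 and 3 were the low ones, and the difference of -0.44 ± 0.16 missed the threshold (limma adjusted p = 0.0997). Diablo passed as lower with array weights, with both other scalings and without DMSO 2 h replicate 1 or dex 36 h replicate 2. Apaf1, the scaffold of the apoptosome, read 0.07 and 0.04 at 2 h and -0.21 and -0.09 at 36 h, without passing. With array weights it passed as lower at 36 h. The inhibitors did not pass either in the fit as designed. Cflar passed as lower at 36 h with array weights (46.3% of all genes passed) and with the 36 h arrays fitted by themselves (23.2%). Cflar, which encodes cFLIP and blocks caspase 8 at death receptors, read from -0.19 to 0.12 over its 4 probes at 2 h and from -0.20 to -0.16 at 36 h. Xiap, which binds caspases directly, read 0.10 and -0.04 at 2 h and -0.05 and 0.02 at 36 h, and its intervals lay between -0.27 and 0.32 at both times.

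Among the other caspases none passed at 2 or 36 h in the fit as designed. Casp4 and Casp6 passed as higher at 36 h with array weights, where 46.3% of all genes passed. Casp8, the initiator at death receptors, read -0.16 at 2 h and -0.01 at 36 h, where its interval was -0.31 to 0.29. Casp2, an initiator outside the apoptosome, read -0.03 and 0.10. Casp6, an executioner, read 0.25 and -0.03 on its 2 probes at 36 h (limma adjusted p = 0.312 and 0.984). Of the inflammatory caspases Casp4 read 0.22 and 0.15 at 36 h (limma adjusted p = 0.45 and 0.541). Casp1, which processes interleukin-1 beta, had the largest error of all members (interval at 36 h of -1.06 to 0.72). The fit takes 1 variance per probe over the 4 groups, and the DMSO 2 h arrays of Casp1 read from -1.51 to 1.66. At 36 h its groups were narrow, with means of 0.21 ± 0.04 in DMSO and 0.04 ± 0.08 with dex (SD, n = 4). Casp12 had an interval of -0.20 to 0.20 at 36 h. Casp14, known for the maturation of skin, read 0.26 at 2 h and -0.07 at 36 h. Over all members, 36 of the 53 probes that did not pass at 2 h had a 95% interval inside ± 0.5 on the log2 scale, and 29 of the 49 at 36 h. The standard error of a dex difference ran from 0.083 to 0.418, with a median of 0.134, so for the less precise probes only large changes could have passed.

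By side, the anti-apoptotic genes had the higher median change at 2 h and the lower at 36 h, as a description with no test, and the order at 36 h turned under some alternatives. With the changes averaged over a gene's probes, the 7 anti-apoptotic genes (5 of the Bcl2 family with Cflar and Xiap) had a median of 0.21 at 2 h, with 6 above 0. The 16 pro-apoptotic genes had a median of -0.07, with 4 above 0. All 19640 genes had a median of -0.0089, with 47.5% above 0. At 36 h the anti-apoptotic median was 0.0091, with 4 of 7 above 0, and the pro-apoptotic median 0.06, with 9 of 16 above 0, against -0.0012 and 49.7% for all genes. At both times Bcl2l11 was the lowest of the pro-apoptotic genes (-0.61 and -0.76) and Bcl2l1 the highest of the anti-apoptotic ones (0.52 and 1.16). Over the alternatives the 2 h medians ran from 0.0213 to 0.21 for the anti-apoptotic genes and from -0.15 to -0.023 for the pro-apoptotic ones. Without dex 2 h replicate 2 the anti-apoptotic median at 2 h was 0.037, with 4 of 7 above 0. The pro-apoptotic one was then -0.048, with 3 of 16 above 0. At 36 h they ran from 0.000364 to 0.25 and from -0.048 to 0.098, and with quantile normalization the anti-apoptotic median (0.042) was above the pro-apoptotic one (0.000764). It was also above it with scaling to one spread (0.04 against 0.011), with the more variable probes alone (0.25 against -0.048) and without dex 36 h replicate 3 (0.031 against 0.017). The genes that passed at 36 h crossed the sides, with Bcl2l1 and Mcl1 (anti-apoptotic) and Bok and Casp9 (pro-apoptotic) all higher.

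**Figure D4:**
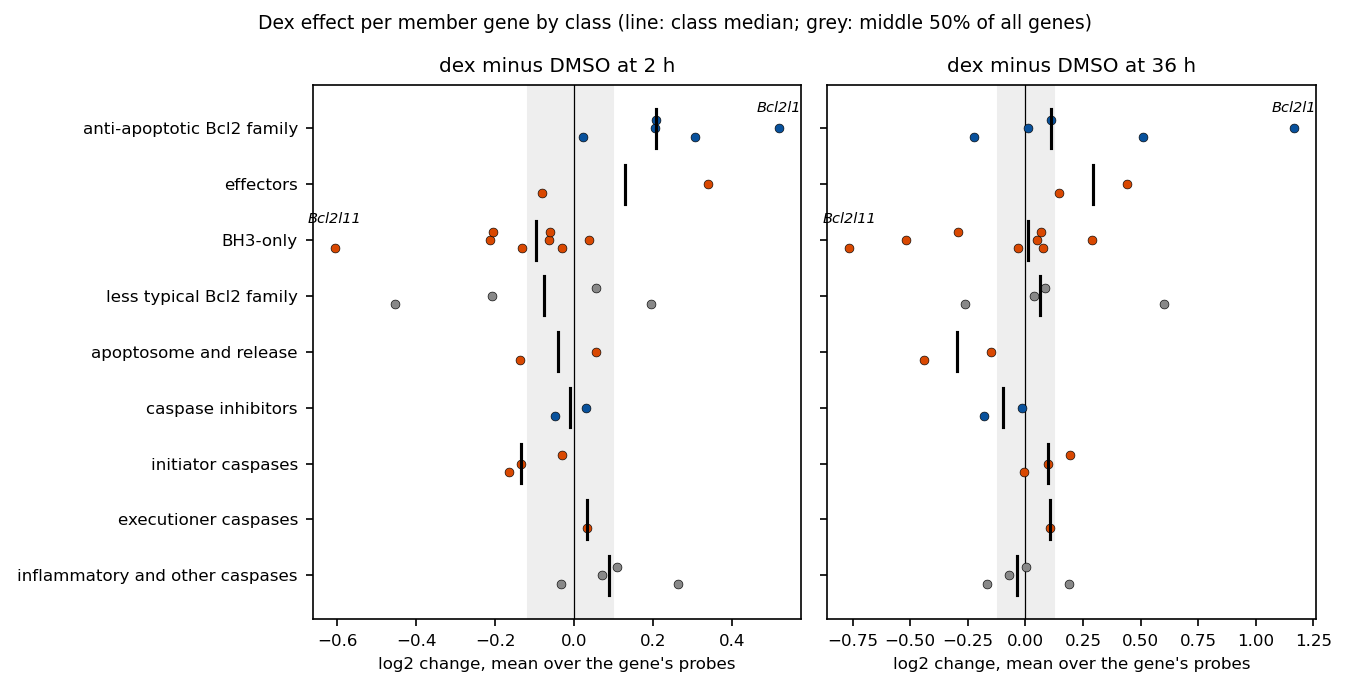
Log2 change with dex averaged over each gene's probes (horizontal axis) for the 31 genes by role, at 2 h on the left and 36 h on the right, on different scales; blue marks the anti-apoptotic side, orange the pro-apoptotic side and grey neither, black lines are class medians and the grey band holds the middle 50% of all 19640 genes. Bcl2l1 and Bcl2l11 lie at opposite ends in both panels.

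Other genes of cell death were counted from a list of 69, of which 61 had a probe of their own. At 2 h 3 rose and 3 fell, against 1.97% and 1.21% of all genes. Tnfrsf12a, the receptor for the cytokine TWEAK, fell by 0.69 on the log2 scale (limma adjusted p = 7.70e-05). Endog, a mitochondrial nuclease, rose by 0.62 (limma adjusted p = 6.61e-04), Tnfrsf1b, the second TNF receptor, by 0.69 (0.00107), and Trp53inp1, a p53-induced protein, by 0.89 (0.0022). The death receptor genes Fas and Tnfrsf10b were the others that fell. At 36 h 9 rose and none fell, against 6.88% and 4.96% of all genes, and the median over the list was 0.11. The strongest by p were Htra2, a mitochondrial protease that binds Xiap (0.46, limma adjusted p = 0.00185), Tmbim1 (0.46, 0.00683) and Tnfrsf1b (0.50, 0.00685). Vdac1, the main channel of the outer mitochondrial membrane, rose by 0.40 (0.0155), Aifm2 by 0.50 (0.0158), Aven by 0.49 (0.0172), Dffa, the inhibitor of the nuclease that cuts DNA in apoptosis, by 0.37 (0.0251) and Dapk3 by 0.30 (0.041). Not every probe of these genes passed at 36 h. The other probes read 0.28 for Htra2 (limma adjusted p = 0.303), 0.14 for Dffa (0.682), and 0.37 and 0.09 for Tnfrsf1b (0.116 and 0.707). For Aifm2 they read 0.42, 0.19 and -0.05 (0.123, 0.225 and 0.987). With quantile normalization the count at 36 h was 16 up and 3 down, and with scaling to one spread 17 up and 3 down. In these fits 22.1% and 21.3% of all genes passed in any direction. With 1 array left out the count ran from 4 to 13, where 6.56% to 15.7% of all genes passed.

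Some markers of cell types differed between dex and DMSO at 36 h. Of the preadipocyte and fibroblast markers 5 of 9 fell (Col1a1, Col1a2, Col3a1, Dlk1 and Pdgfrb; median of the list -0.38), and of the adipocyte markers 3 of 8 rose (Cd36, Fabp4 and Lpl; median 0.18). Of the macrophage list 1 of 6 fell (Lyz2), of the endothelial list 0 of 5 passed, and of the epithelial list 1 of 4 rose (Krt8), all in limma with the same threshold. Of all genes 6.88% passed as higher and 4.96% as lower at 36 h. The vehicle moved too: from DMSO at 2 h to DMSO at 36 h, Col1a1 passed upward and Cd36, Lpl and Krt8 downward. With dex at 2 h, Fabp4 passed as higher and Lpl and Pdgfrb as lower. Ratios to a pool cannot show whether a marker is present, and in bulk RNA fewer cells of a type and less RNA per cell cannot be told apart. The part of these shifts in the changes of the caspases and the Bcl2 family was not tested.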

How the data were processed

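Per the labels, total RNA was reverse transcribed, labelled in Cy5 and hybridised with a Cy3 pool of the samples, without dye swaps. The authors deposited ratios of each sample to the pool, taken here as log2 values. The sources used here do not state the log base, the background correction or the normalization within arrays, and base 2 was assumed because limma, named in the submitters' processing notes, uses it. With no intensities, signal over background is unknown, and the number of arrays limits the precision. Values were used as deposited; 131 were missing, none of them in member probes. Probes were named by the platform annotation, updated through RefSeq (GRCm38.p6); 58 of 58 member probes matched.

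Group means of all 16 arrays were fitted with limma 3.58.1 in R 4.3.3 (lmFit, eBayes, 12 residual and 3.19 prior degrees of freedom) to 38467 probes, with Benjamini-Hochberg adjustment over all probes of each of 4 contrasts and a threshold of 0.05. Dex against DMSO at 2 h, the same at 36 h, the difference between these, and DMSO at 36 h against 2 h were the contrasts. A fold is 2 raised to the log2 difference. Of a member gene's probes, the one quoted has the smallest moderated F p over the dex contrasts at 2 and 36 h. The other cell death genes are quoted on a probe that passed, so their quoted changes were picked by the result. Genes passing in any contrast are given array by array and the others by role. Of other cell death genes up to 8 at 36 h and 4 at 2 h were named by p, and Fas and Tnfrsf10b, to complete a count, after their values were seen. The members, lists and rules were chosen with earlier results of these data known. The fit was tested on simulated data. Alternatives were the log-odds rule of the design text, a replicate block, array weights, quantile normalization, scaling to one median absolute deviation, filters, a robust prior, the arrays of a contrast alone, and leaving out each array.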

Additional observations from a re-analysis of the deposited data

Results flagged for a closer look

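The Bcl2l1 response to dex grew between 2 and 36 h by 1.01 on the log2 scale on its quoted probe, a difference between the effects at both times that passed in limma (adjusted p = 0.00136). It was positive on all 3 probes and passed on 1 of them. In dex 2 h, the highest Bcl2l1 array, replicate 2 at 0.51, lay far from the other three, which read 0.22 to 0.26. In DMSO 2 h, the lowest Bcl2l11 array, replicate 4 at -0.29, lay far from the other three, which read 0.13 to 0.22. It is the array that correlated negatively with its group over all probes. Distant arrays were looked for in 24 groups of 4 with Dixon's test, which chance passes in about 1 in 20 groups.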

How the results depend on the processing

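With 1 array left out in turn, the number of member genes that passed was 2 at 2 h in every fit (2.42% to 3.98% of all genes), 3 to 8 at 36 h (6.56% to 15.7%), 1 to 2 for the change of the dex effect (2.32% to 4.64%) and 0 to 1 for DMSO over time (0.611% to 2.70%), and for other cell death genes 4 to 6 at 2 h and 4 to 13 at 36 h. With the arrays of the contrast alone, 1 member passed at 2 h (1.5% of all genes), 10 at 36 h (23.2%) and 0 in DMSO over time (0.479%, limma), and of the other genes 2 at 2 h and 17 at 36 h. The log-odds rule gave 3 members and 3 other genes at 36 h. Array weights gave 16 members and 35 other genes at 36 h, where 46.3% of all genes passed, 6 for the change (9.40%) and 2 for DMSO over time (2.55%). Quantile normalization gave 10 members and 19 other genes at 36 h (22.1%), 3 for the change (7.15%) and 2 for DMSO over time (3.82%), and scaling of the spread 10, 20, 2 and 3 (21.3%, 7.20% and 3.46% of all genes). The filter on the more variable probes gave 5 other genes at 36 h (11.4% of the 11491 genes it kept) and 0 members in DMSO over time (1.12%). By unadjusted p under 0.05, 11 of 58 member probes differed in DMSO over time (12.1% of all probes). The cause of these shifts was not tested.

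The replicate number as a block left 2 members at 2 h (2.87% of all genes), 5 at 36 h (10.1%; without Casp9, adjusted p = 0.0699), 1 for the change (2.71%) and 0 for DMSO over time (0.896%), where Bcl2l1 had an adjusted p of 0.086. Same-numbered arrays of different groups had correlations of their deviations from -0.103 to 0.344 (median -0.00307, 24 pairs), other pairs a median of 0.000588, and 8 of 16 arrays matched their own number best. In each other group 1 of the 4 arrays has a given array's number. So 8 of 16 is more than an even spread of best matches would give, which was not tested. Most of these pairs cross the times. Between dex and DMSO of the same time, replicates 1 to 4 gave -0.103, 0.19, 0.041 and 0.255 at 2 h. At 36 h they gave -0.0243, 0.344, 0.224 and -0.0753. Pairs of unlike number ran from -0.268 to 0.234 at 2 h and from -0.313 to 0.148 at 36 h. The labels give no shared origin for a number, so the numbers were not taken to pair the samples.

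Bcl2l1, Bcl2l11 and Mcl1 at 36 h and the Bcl2l1 change passed under every alternative run (for the change, no fit of a contrast's arrays alone exists). Over all alternatives the adjusted p ran from 0.00786 to 0.117 for Bcl2l1 at 2 h, 0.00136 to 0.318 for Bcl2l11 at 2 h, 2.72e-04 to 0.107 for Bok, 2.85e-05 to 0.0968 for Bcl2l13 and 2.94e-04 to 0.175 for Casp9 at 36 h, and 0.0126 to 0.146 for Bcl2l1 in DMSO over time. The sign changed in 46 of 1816 single-gene alternatives (34 of them with an array left out), none with a value past the threshold. At 2 h, Bcl2l2 read -0.0022, Bid 0.18 and Casp1 0.1003 with array weights. Quantile normalization gave Bid 0.072, Bik -0.013 and Casp1 0.0072, and scaling of the spread Bak1 0.014, Bad 0.00899, Bid 0.048 and Bik -0.0022. At 36 h, Bad read -0.039 with quantile normalization and Casp8 0.026 with array weights. With arrays left out, the 2 h values ran from -0.016 to 0.20 for Apaf1, -0.0602 to 0.15 for Bcl2l13, -0.66 to 0.10 for Bcl2l15, -0.14 to 0.13 for Bid, -0.018 to 0.14 for Bik, -0.52 to 0.54 for Casp1, -0.14 to 0.13 for Casp2, -0.23 to 0.0034 for Diablo, -0.26 to 0.052 for Hrk and -0.027 to 0.15 for Xiap. At 36 h they ran from -0.0025 to 0.18 for Bad, -0.018 to 0.16 for Bbc3, -0.012 to 0.031 for Bcl2l10, -0.062 to 0.041 for Bik, -0.057 to 0.071 for Bmf, -0.057 to 0.057 for Casp12, -0.033 to 0.034 for Casp8 and -0.015 to 0.016 for Pmaip1. The Bok change of the dex effect ran from -0.061 to 0.23.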

Other observations

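Probes that name several genes were outside the rule. The probe shared by Cycs, which encodes cytochrome c, and Gm10053 read -0.0046 at 2 h and -0.39 at 36 h and passed at neither time (limma adjusted p = 0.998 and 0.672), and its signal cannot be assigned to either gene. The 3 probes shared by Bcl2a1a, Bcl2a1b and Bcl2a1d, near-identical copies of an anti-apoptotic Bcl2 relative, read 0.21, 0.25 and 0.20 at 36 h, and none passed (limma adjusted p = 0.21, 0.539 and 0.274). Bcl2a1c, a relative with its own probe whose symbol the rule did not match, read -0.03 at 2 h and -0.05 at 36 h.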
